A study of Mus musculus with 12 samples.

Results

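Collagen genes were followed in mouse liver RNA sequencing data as 1 gene family. Members were all genes whose symbol has the form Col, a number, the letter a and a number, which gave 39 of the 24983 genes in the count table. By the class of their protein, 9 were fibrillar collagens, 6 basement membrane collagens, 6 beaded filament collagens and 18 of other kinds. The annotated members Col2a1, Col9a1, Col11a1, Col19a1 and Col26a1 were not analysed here.

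Collagens are extracellular matrix proteins built from chains that wind into a triple helix. Fibrillar collagens pack into the thick fibres of scar, basement membrane collagens form sheets under epithelium and vessels, and beaded filament (type VI) collagens link cells to the fibres. Other kinds decorate fibrils, form hexagonal networks, span the cell membrane or, as Col18a1 does, carry sugar chains in vessel and liver basement zones. In fibrotic liver most fibrillar collagen is made by hepatic stellate cells that have turned into myofibroblasts and by portal fibroblasts.

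RNA came from the livers of 12 C57BL/6J mice in 4 groups of 3. Of these, 3 groups ate for 24 weeks the NASH diet, named for the inflamed fatty liver (nonalcoholic steatohepatitis) that it brings on and enriched in fructose, cholesterol, saturated fat and trans-fat, with 40% of its calories as fat. Pumps under the skin released OA-NO2, a nitrated form of oleic acid, at 5 mg/kg/day, plain oleic acid (OA) at the same rate, or the solvent polyethylene glycol alone (vehicle). The last group ate standard chow, also for 24 weeks. Since the titles of its mice mention no pump, diet and pump cannot be told apart. The sources used here do not give the ages of the mice.

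Total counts ran from 8462590 reads (chow replicate 1) to 20613777 reads (vehicle replicate 3). Collagen genes held 0.152%, 0.0705% and 0.0873% of the counts in OA-NO2 replicates 1 to 3, 0.139%, 0.125% and 0.0799% in OA replicates, 0.121%, 0.119% and 0.165% in vehicle replicates, and 0.0570%, 0.0676% and 0.0700% in chow replicates. Hepatocyte markers were abundant in all 12 libraries, at a summed 45753 to 151074 CPM (counts scaled to library totals, here adjusted by trimmed mean of M values, TMM). Scaling by library totals without TMM put the middle of the log2 fold changes over every gene tested at 0.34 in OA-NO2, 0.42 in OA and 0.51 in vehicle livers, each set against chow, so changes given here are relative to the TMM scale. Among the diet groups the same middle value was -0.11 when OA-NO2 was set against OA, -0.18 when it was set against vehicle, and -0.09 when OA was set against vehicle.

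Promoter sequence is shown for Col1a2 and Col3a1, genes of scar collagen that were higher on the diet, and for both annotated starts of Col18a1, the most abundant collagen transcript of these livers, which was not. RefSeq windows (build GRCm38.p6) were found for 32 of the 39 members, 34 windows in all, and the 250 bases before each start were searched on both strands for the CCAAT box, the TATA box written as TATAAA, the GC box GGGCGG and the AP-1 word TGANTCA. Capitals mark a match in either orientation. Col1a2 (chr6:4505368-4505617, plus strand) had CCAAT at position -109 from the start and 2 copies of GGGCGG. Col3a1 (chr1:45311288-45311537, plus strand) had TATAAA at -117 and was 35.2% G and C, against 62% in the Col1a2 window. The downstream start of Col18a1 (chr10:77113706-77113955, minus strand) matched none of these letters, and the upstream start (chr10:77166531-77166780, minus strand) held 1 CCAAT and 3 copies of GGGCGG.
Col1a2: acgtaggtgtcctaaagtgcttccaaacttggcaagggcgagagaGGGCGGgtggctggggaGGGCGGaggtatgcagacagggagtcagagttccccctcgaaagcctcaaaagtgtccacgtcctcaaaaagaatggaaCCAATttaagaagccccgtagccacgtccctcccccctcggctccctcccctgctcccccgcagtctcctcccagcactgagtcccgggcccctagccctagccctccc
Col3a1: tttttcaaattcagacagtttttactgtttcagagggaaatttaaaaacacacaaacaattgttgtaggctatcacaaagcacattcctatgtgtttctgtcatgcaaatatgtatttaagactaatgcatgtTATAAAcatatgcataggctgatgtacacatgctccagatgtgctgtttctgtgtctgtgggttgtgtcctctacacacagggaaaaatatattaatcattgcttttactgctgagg
Col18a1, downstream start: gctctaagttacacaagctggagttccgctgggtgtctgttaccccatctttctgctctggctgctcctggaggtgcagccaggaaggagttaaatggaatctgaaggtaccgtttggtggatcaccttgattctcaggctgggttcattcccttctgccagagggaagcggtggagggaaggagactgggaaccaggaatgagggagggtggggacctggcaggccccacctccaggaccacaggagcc
Col18a1, upstream start: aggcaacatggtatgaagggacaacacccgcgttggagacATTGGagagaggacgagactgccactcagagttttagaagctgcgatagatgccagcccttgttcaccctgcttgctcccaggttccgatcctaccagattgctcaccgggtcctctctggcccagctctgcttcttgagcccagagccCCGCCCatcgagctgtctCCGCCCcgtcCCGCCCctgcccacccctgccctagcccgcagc

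Over the 34 collagen windows, GGGCGG was found in 21 (61.8%), against 32.7% of the 32851 RefSeq windows of mouse genes. CCAAT stood in 11 collagen windows (32.4%, against 33.8% of all), TATAAA in 5 (14.7%, against 12.4%) and TGANTCA in 1, that of Col6a1 (2.94%, against 6.75%). In the 11 windows of members higher on the diet GGGCGG was found in 7 (63.6%), and in the 13 windows of tested members not called it was found in 9 (69.2%). These are counts of letters and say nothing of which factor binds.

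Of the 39 collagen genes, 27 had enough reads to be tested, and 14 of them were higher in vehicle livers on the NASH diet than in chow livers (edgeR quasi-likelihood test, adjusted p under 0.05). None was lower, and 2 of the 13 members not called had a negative change at an unadjusted p under 0.05, a level that 15.6% of all genes reached with a negative change. Across all 14469 genes tested, 11.1% were called higher and 8.16% lower. The median log2 fold change of the 27 members was 1.57, against -0.01 over all genes tested. In each of the 14 called members, the lowest vehicle library lay above the highest chow library. The call itself favours such a gap, and its share over all genes was not counted. DESeq2 also called 14 members, where it called 22.4% of all genes tested, and totals alone in place of TMM called 17, where 39.8% of all genes were called. In whole liver, a change in the number of collagen-making cells and a change in RNA per cell cannot be told apart.

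**Figure D1:**
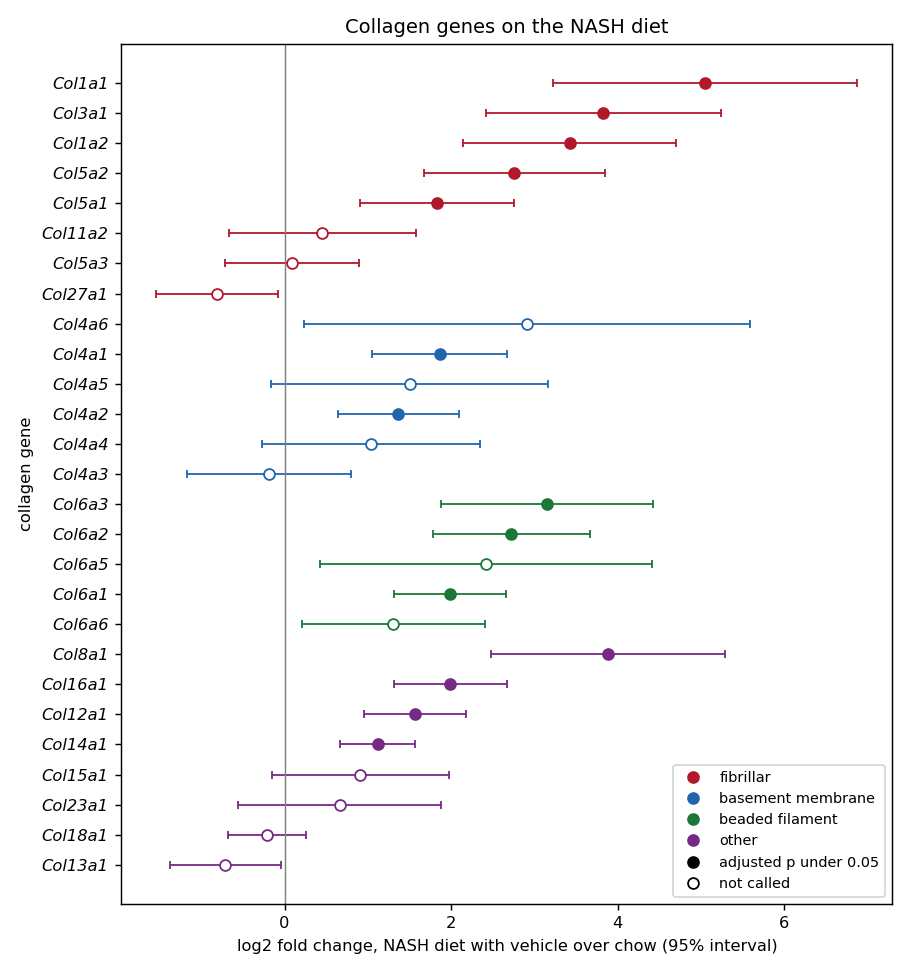
Log2 fold change of each of the 27 tested collagen genes, vehicle on the NASH diet over chow, with 95% intervals (n = 3 mice each), ordered within class; filled symbols have an adjusted p under 0.05. The 14 filled symbols all lie above 0, from Col14a1 at 1.12 to Col1a1 at 5.05.

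Fibrillar collagens gave 5 of 8 tested members higher and 0 lower, with a median log2 fold change of 2.29. Col1a1 (ENSMUSG00000001506, chromosome 11, 94936224 to 94953042), the main chain of type I collagen and so of scar, had 29.4, 47.5 and 80.6 CPM in vehicle livers, against 2.03, 0.963 and 1.92 CPM in chow livers. Each vehicle library was far above the chow libraries, though the vehicle libraries differed widely among themselves. Its log2 fold change was 5.05 ± 0.85 (SE, adjusted p = 0.00338), the largest among the called collagens. Col1a2 (ENSMUSG00000029661, chromosome 6, 4504814 to 4541544), the partner chain of type I collagen whose promoter is given above, had 30.4, 52.0 and 77.4 CPM in vehicle livers, against 5.61, 4.47 and 4.99 CPM in chow livers. The groups did not overlap, and the libraries stood in the same order as for Col1a1 within the vehicle group. The log2 fold change was 3.42 ± 0.59 (adjusted p = 0.00365).

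Col3a1 (ENSMUSG00000026043, chromosome 1, 45311538 to 45349706), the single chain of type III collagen found in reticular fibres and early scar, had 81.7, 165 and 243 CPM in vehicle livers, against 9.66, 14.1 and 10.5 CPM in chow livers. All vehicle libraries lay above all chow libraries, for a log2 fold change of 3.83 ± 0.65 (adjusted p = 0.00359). Its neighbour Col5a2 lies 24614 bases away on the same chromosome in tail-to-tail orientation. Col5a2, a chain of type V collagen, which starts the assembly of type I fibrils, had 6.66, 10.1 and 17.0 CPM in vehicle livers, against 1.40, 2.34 and 1.15 CPM in chow livers, a log2 fold change of 2.76 ± 0.50 (adjusted p = 0.00424). Col5a1, the other main chain of type V, had 10.8, 11.4 and 17.3 CPM in vehicle livers, against 3.12, 3.03 and 4.80 CPM in chow livers. Both type V chains were separated between the groups, and the log2 fold change of Col5a1 was 1.83 ± 0.43 (adjusted p = 0.0123). Without chow replicate 2 the adjusted p of Col5a1 was 0.0554.

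The remaining fibrillar genes did not pass the test. Col5a3, a type V chain of restricted tissue range, had a log2 fold change of 0.09 ± 0.37, and Col11a2, a chain of cartilage fibrils, one of 0.45 ± 0.52. Col27a1, also best known from cartilage, had 16.2, 19.2 and 10.5 CPM in vehicle livers, against 29.1, 33.4 and 18.2 CPM in chow livers. The groups overlapped, since vehicle replicate 2 lay above chow replicate 3, and the log2 fold change was -0.81 ± 0.34 (adjusted p = 0.110). Col24a1, a fibrillar collagen of bone, had 62 counts over the 12 libraries and was not tested.

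Of the 6 basement membrane genes, all were tested, 2 were higher and 0 lower, with a median log2 fold change of 1.43. Col4a1 (ENSMUSG00000031502, chromosome 8, 11198423 to 11312826), a chain of the type IV network under most epithelia and vessels, had 56.3, 61.6 and 88.5 CPM in vehicle livers, against 13.6, 21.6 and 20.9 CPM in chow livers, a log2 fold change of 1.86 ± 0.38 (adjusted p = 0.00656). Its partner chain Col4a2 had 22.2, 26.5 and 44.8 CPM in vehicle livers, against 8.88, 11.9 and 14.97 CPM in chow livers, a log2 fold change of 1.37 ± 0.34 (adjusted p = 0.0155). Neither gene overlapped between the groups. The Col4a2 call was lost without chow replicate 1 (adjusted p = 0.0617), chow replicate 2 (0.0544) or vehicle replicate 3 (0.0724). Col4a1 and Col4a2 start head to head and their annotations share 22 bases, so reads there are uncertain if the counting did not use strand.

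The other type IV chains, which in the kidney and elsewhere form restricted basement membranes, were low and uneven. Col4a5 had 1.12, 4.36 and 4.77 CPM in vehicle livers, against 2.03, 1.03 and 0.832 CPM in chow livers (log2 fold change 1.5 ± 0.77, adjusted p = 0.187). Col4a4 had 0.465, 1.38 and 2.24 CPM in vehicle livers, against 0.468, 0.550 and 0.896 CPM in chow livers (1.04 ± 0.61, adjusted p = 0.248). In both genes vehicle replicate 1 lay within the chow range or below it. Col4a6 had 0.0931, 0.532 and 0.718 CPM in vehicle livers from 29 reads, against 0, 0 and 0.128 CPM in chow livers from 2 reads (adjusted p = 0.118), too few for a fold change. Col4a3, whose exons share 563 bases with the antisense gene C430014B12Rik, had a log2 fold change of -0.19 ± 0.46, and its sign turned under totals alone (0.32).

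Beaded filament collagens gave 3 of 5 tested members higher and 0 lower, with a median log2 fold change of 2.42. These were the 3 chains of ordinary type VI collagen. Col6a1 (ENSMUSG00000001119, chromosome 10, 76708792 to 76726168) had 15.2, 18.5 and 28.0 CPM in vehicle livers, against 4.68, 4.75 and 6.01 CPM in chow livers, a log2 fold change of 1.99 ± 0.31 (adjusted p = 0.00254). Col6a2, 85161 bases away on the same strand, had 10.4, 11.1 and 23.3 CPM in vehicle livers, against 1.87, 2.48 and 2.30 CPM in chow livers (2.72 ± 0.44, adjusted p = 0.00284). Col6a3, the large chain of the trimer, had 14.7, 40.6 and 44.2 CPM in vehicle livers, against 3.12, 4.06 and 3.84 CPM in chow livers (3.15 ± 0.59, adjusted p = 0.00470). For all 3 chains the groups were apart, with vehicle replicate 1 the lowest of its group.

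Col6a5 and Col6a6, later-described chains that can stand in for Col6a3, were near the detection limit. Col6a5 had 0.605, 0.266 and 1.73 CPM in vehicle livers, against 0, 0.206 and 0.192 CPM in chow livers (log2 fold change 2.42 ± 0.92, adjusted p = 0.0824). Col6a6 had 0.838, 0.639 and 1.01 CPM in vehicle livers, against 0.468, 0.138 and 0.448 CPM in chow livers (1.31 ± 0.51, adjusted p = 0.0890). The groups did not overlap in either gene, but the changes did not pass the threshold, and both did with totals alone (adjusted p = 0.0269 and 0.0175). Col6a4 had 5 counts over the 12 libraries.

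Among the other collagens, 4 of 8 tested members were higher and 0 lower, with a median log2 fold change of 1.01. Col8a1, a short-chain collagen of vessel walls, averaged 2.97 ± 0.878 CPM in vehicle livers and 0.217 ± 0.134 CPM in chow livers (SD, n = 3 each). Its log2 fold change was 3.88 ± 0.65 (adjusted p = 0.00338). The other 3 are fibril-associated collagens, which bind the surface of fibrils. Col16a1 averaged 6.99 ± 1.1 CPM in vehicle livers and 1.76 ± 0.562 CPM in chow livers (1.99 ± 0.31, adjusted p = 0.00254). Col12a1 had a log2 fold change of 1.57 ± 0.28 (adjusted p = 0.00411) and Col14a1 one of 1.12 ± 0.21 (adjusted p = 0.00465). Col14a1 had 80.2, 71.5 and 113 CPM in vehicle livers, against a narrow 41.0, 40.8 and 40.4 CPM in chow livers.

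Col18a1 (ENSMUSG00000001435, chromosome 10, 77052178 to 77166548), the proteoglycan precursor of endostatin, had 652, 423 and 579 CPM in vehicle livers, against 595, 638 and 682 CPM in chow livers. The groups overlapped and the log2 fold change was -0.21 ± 0.22 (adjusted p = 0.525), with the sign turned under totals alone (0.31). Its relative Col15a1 had a log2 fold change of 0.91 ± 0.49 (adjusted p = 0.213). The transmembrane collagens Col13a1 and Col23a1 had log2 fold changes of -0.71 ± 0.31 (adjusted p = 0.124) and 0.66 ± 0.57. The 12 untested members had 4 to 82 counts each over all libraries and held 0.160% of all 221254 collagen counts. They were, beside Col24a1 and Col6a4, the network chains Col8a2 and Col10a1, the anchoring fibril collagen Col7a1, the fibril-associated Col9a2, Col9a3, Col20a1 and Col22a1, the transmembrane Col17a1 and Col25a1, and Col28a1. Their highest group mean was 0.7996 CPM (Col25a1 in chow).

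**Figure D2:**
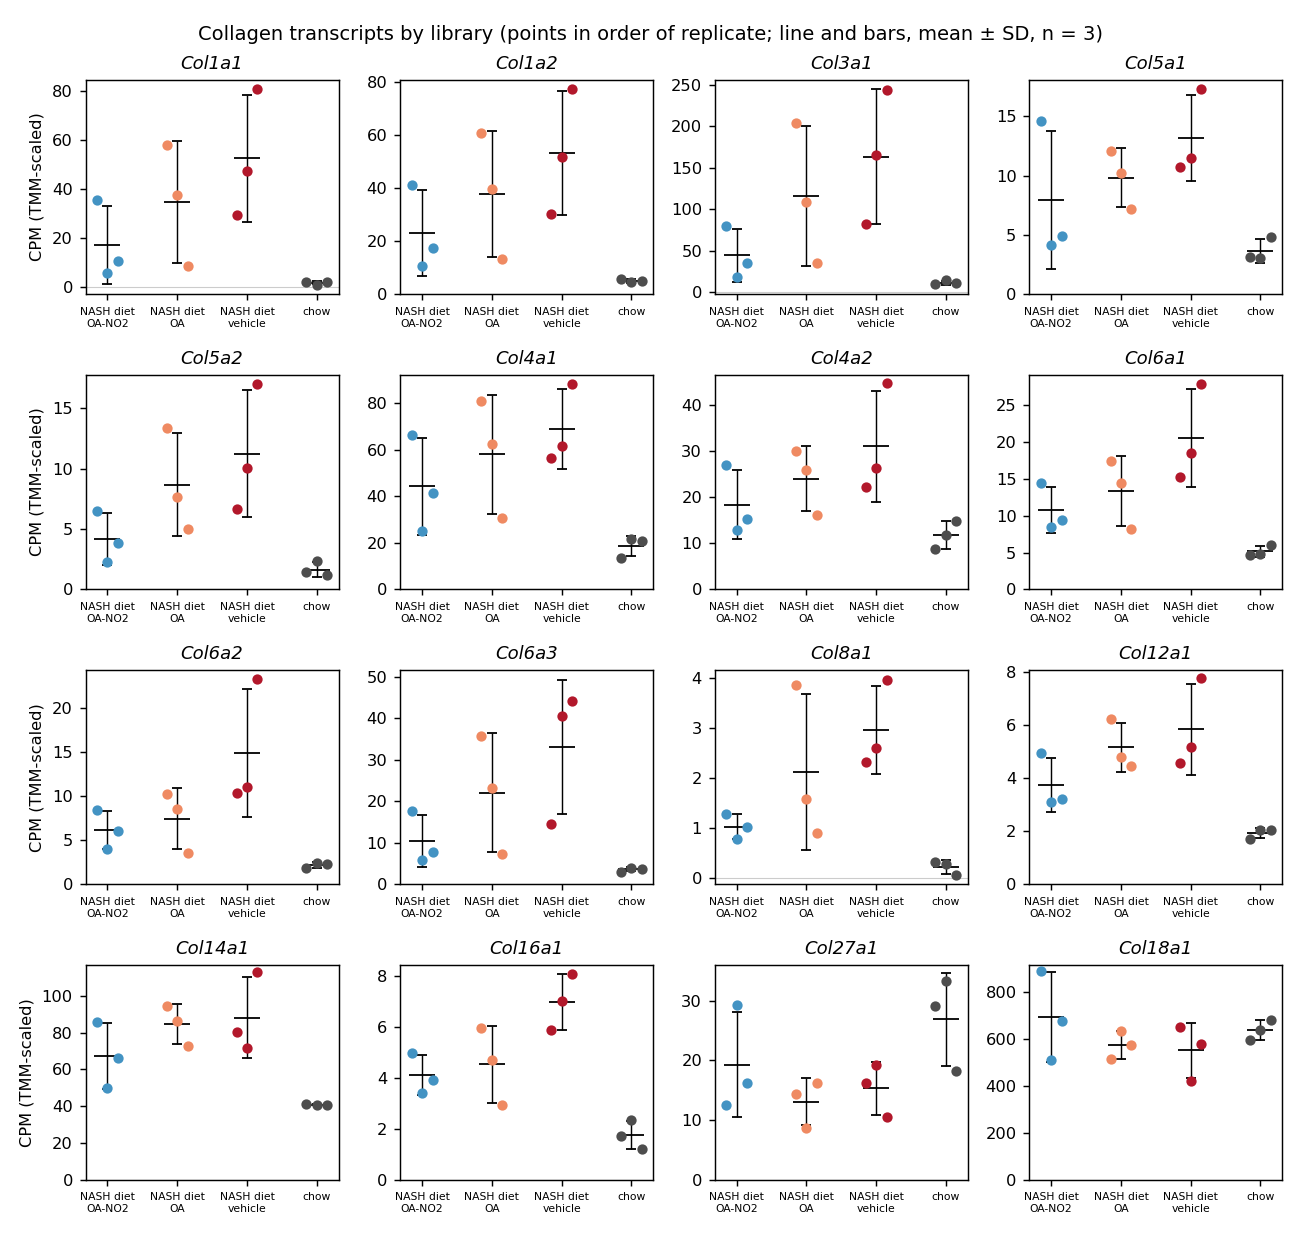
CPM (TMM-scaled) of 16 collagen genes in each library; points are libraries in replicate order, with mean ± SD (n = 3 mice a group), and each panel has its own axis from 0. Col1a1 shows 29.4 to 80.6 CPM in vehicle livers and 0.963 to 2.03 CPM in chow livers, while Col18a1 overlaps in all 4 groups.

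Levels of different genes were compared as CPM per kilobase of the main transcript, the one with the longest coding sequence. On that scale Col18a1 ranked first in all 4 groups, with 124 ± 34.4 in OA-NO2, 103 ± 10.8 in OA, 98.6 ± 20.9 in vehicle and 114 ± 7.80 in chow livers (SD, n = 3 each). Col3a1 ranked 3 in OA-NO2, 2 in OA, 2 in vehicle and 6 in chow livers. In vehicle livers Col3a1 stood at 29.4 ± 14.5 per kilobase and Col14a1, next, at 13.7 ± 3.41. Then came Col4a1 at 10.4 ± 2.61, Col1a2 at 9.96 ± 4.39 and Col1a1 at 8.85 ± 4.38. These SDs are between mice, and within each vehicle library Col1a1 stood below Col1a2 (ratios 0.872, 0.824 and 0.939). That order depends on the length used. Per kilobase of the union of all annotated exons, Col1a1 stood above Col1a2 in each vehicle library (1.83, 1.73 and 1.97). The place of Col4a1 among them was not tested. In chow livers the order below Col18a1 was Col14a1 at 6.31 ± 0.0432, Col27a1 at 3.53 ± 1.03 and Col4a1 at 2.83 ± 0.674.

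The make-up of the collagen transcripts differed more than their sum. The CPM of all members summed to 1011 ± 328 in OA-NO2, 1048 ± 189 in OA, 1172 ± 230 in vehicle and 807 ± 52.0 in chow livers (SD, n = 3 each). With totals alone in place of TMM these means were 1034, 1149, 1350 and 649 CPM, further apart. Without Col18a1 the TMM-scaled sums were 318 ± 138, 473 ± 211, 620 ± 221 and 168 ± 9.76 CPM in the same order of groups. Col18a1 took 69.2% ± 3.38 of collagen CPM in OA-NO2, 56.3% ± 13.0 in OA, 47.7% ± 11.5 in vehicle and 79.1% ± 0.621 in chow livers. Col1a1, Col1a2 and Col3a1 together took 7.63% ± 3.45 in OA-NO2, 16.8% ± 10.1 in OA, 22.5% ± 8.04 in vehicle and 2.25% ± 0.190 in chow livers. By library this share was 11.5%, 4.74% and 6.71% in OA-NO2, 27.0%, 16.7% and 6.80% in OA, 13.2%, 26.2% and 28.0% in vehicle and 2.30%, 2.40% and 2.03% in chow livers. OA replicate 3 lay within the OA-NO2 range, and all libraries of the diet groups lay above chow. These are descriptions over the family, with no test.

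**Figure D3:**
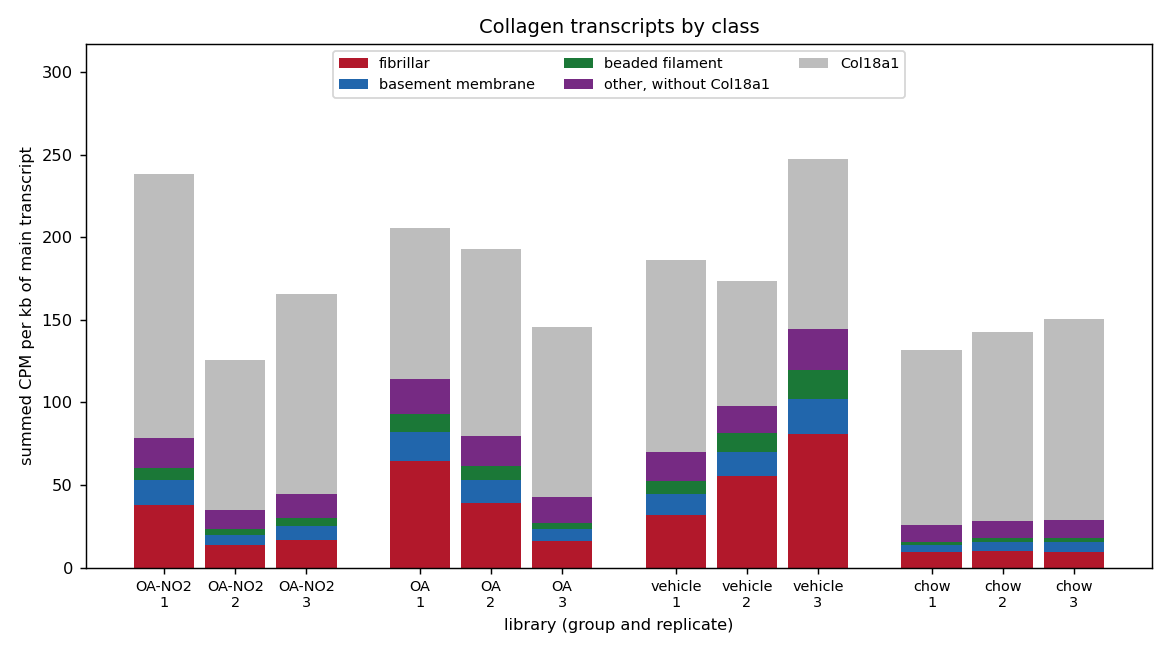
Summed CPM per kilobase of main transcript of the 39 collagen genes, stacked by class with Col18a1 apart, 1 bar per library (OA-NO2, OA, vehicle and chow, replicates 1 to 3). Col18a1 is the largest part of each bar, and the fibrillar part is tallest in vehicle replicate 3 at 80.6 and between 9.52 and 10.4 in chow.

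Type I collagen is a trimer of Col1a1 and Col1a2 chains, and the balance of their transcripts was not the same in all groups. Col1a1 over Col1a2, each per kilobase of main transcript, was 0.770, 0.484 and 0.531 in OA-NO2, 0.859, 0.855 and 0.571 in OA, 0.872, 0.824 and 0.939 in vehicle and 0.326, 0.194 and 0.347 in chow livers. All 9 diet libraries lay above the 3 chow libraries, and the 3 OA-NO2 libraries and OA replicate 3 lay below all vehicle libraries. Col1a1 had 57 counts over the chow libraries, so the chow ratio is the least precise. Per kilobase of the union of all annotated exons the ratios were 1.25 ± 0.321, 1.60 ± 0.346, 1.84 ± 0.121 and 0.607 ± 0.174 (SD, n = 3) in the same order of groups. Col4a1 over Col4a2 was 2.31 ± 0.379 in OA-NO2, 2.27 ± 0.399 in OA, 2.22 ± 0.280 in vehicle and 1.54 ± 0.209 in chow livers.

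On OA, 12 of 27 tested collagen genes were higher than in chow livers and 0 lower (edgeR), where 6.33% of all genes tested were called higher and 2.23% lower. The log2 fold changes of Col1a1, Col8a1, Col3a1 and Col1a2 were 4.45 ± 0.84, 3.40 ± 0.66, 3.33 ± 0.64 and 2.93 ± 0.59 (adjusted p = 0.00844 to 0.0102). Without OA replicate 1, Col1a1, Col8a1 and Col3a1 had changes of 3.87, 2.64 and 2.64. The other 8 members called were Col4a1, Col5a2, Col6a1, Col6a2, Col6a3, Col12a1, Col14a1 and Col16a1. Col5a1 (1.41 ± 0.43, adjusted p = 0.0588) and Col4a2 (0.996 ± 0.34, adjusted p = 0.0811) missed the threshold. Col27a1, with a negative change, also missed it (-1.03 ± 0.34, adjusted p = 0.0764). It was called lower by edgeR with no filter on low counts (adjusted p = 0.0425) and by the DESeq2 Wald test (0.0278). Leaving out 1 library moved the count. It was 6, 8 and 8 when chow replicates 1 to 3 were dropped in turn. For OA replicates 1 to 3 it was 5, 7 and 15, the last with Col27a1 lower. Calls over all genes, 1238 in the main test, moved in the same direction. They came to 465 (3.14%), 567 (3.82%) and 871 (5.87%) genes for the chow replicates in turn. For the OA replicates they came to 347 (2.35%), 379 (2.56%) and 2232 (15%). The shifts were thus not confined to collagen genes.

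On OA-NO2, 0 collagen genes were called against chow by edgeR, where 0.435% of all genes tested were called higher and 0.249% lower. At an unadjusted p under 0.05, 13 members were higher and 0 lower, where 10.7% of all genes were higher and 8.11% lower, and the median log2 fold change of the 27 was 0.89. The lowest adjusted p was 0.0695, for Col1a1, whose log2 fold change over chow was 3.44 ± 0.83, and 2.33 without OA-NO2 replicate 1. Col1a1 had 35.4, 5.64 and 10.4 CPM in OA-NO2 livers, against 2.03, 0.963 and 1.92 CPM in chow livers, so the groups did not overlap. DESeq2 called 8 members higher in OA-NO2 than in chow livers, totals alone called 10, and no filter on low counts called 2, where they called 4.51%, 7.79% and 1.05% of all genes. A threshold passed by vehicle and not by OA-NO2 is not a test of their difference, which follows.

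For OA-NO2 over vehicle, both on the NASH diet, 0 of 27 collagen genes were called by edgeR or by DESeq2, where edgeR called 0.0207% and DESeq2 2.07% of all genes tested. At an unadjusted p under 0.05, 15 members were lower and 0 higher, where 8.51% of all genes were lower and 7.25% higher. The median log2 fold change of the members was -0.93, against 0.02 over all genes tested. The lowest adjusted p among members was 0.177 with edgeR, and between 0.0515 and 0.514 over the alternatives tried. Col6a2 had the lowest p, with 8.43, 4.09 and 6.10 CPM in OA-NO2 livers, against 10.4, 11.1 and 23.3 CPM in vehicle livers (log2 fold change -1.27 ± 0.39, 95% interval -2.10 to -0.43). Col5a2 had 6.53, 2.28 and 3.80 CPM in OA-NO2 livers, against 6.66, 10.1 and 17.0 CPM in vehicle livers (-1.42 ± 0.44, interval -2.37 to -0.47, adjusted p = 0.178). Col6a1 had 14.4, 8.49 and 9.48 CPM in OA-NO2 livers, against 15.2, 18.5 and 28.0 CPM in vehicle livers (-0.93 ± 0.29, interval -1.56 to -0.30, adjusted p = 0.179). In these 3 genes each OA-NO2 library was below each vehicle library, and OA-NO2 replicate 1 was the closest to them. The 3 were picked by their low p in this comparison, which favours such a gap. Its share over all genes was not counted.

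The scar collagens varied more. Col3a1 had 79.7, 18.1 and 35.4 CPM in OA-NO2 livers, against 81.7, 165 and 243 CPM in vehicle livers (log2 fold change -1.88 ± 0.59, adjusted p = 0.180). Col1a1 had 35.4, 5.64 and 10.4 CPM in OA-NO2 livers, against 29.4, 47.5 and 80.6 CPM in vehicle livers (-1.61 ± 0.66, adjusted p = 0.260). OA-NO2 replicate 1 lay above vehicle replicate 1 for Col1a1 and just under it for Col3a1, while OA-NO2 replicates 2 and 3 lay below all vehicle libraries. For Col1a2 the libraries had 41.4, 10.5 and 17.6 CPM with OA-NO2, against 30.4, 52.0 and 77.4 CPM with vehicle (-1.20 ± 0.52, adjusted p = 0.284). Without OA-NO2 replicate 1 the changes were -2.61 for Col3a1, -2.72 for Col1a1 and -1.92 for Col1a2, and the values nearest to 0 with 1 library left out, all without vehicle replicate 3, were -1.47, -1.16 and -0.83. Of the fibrillar members not higher on the diet, Col5a3 and Col27a1 had positive changes of 0.44 ± 0.36 and 0.34 ± 0.34, as had Col18a1 at 0.33 ± 0.22, Col13a1 at 0.33 ± 0.31 and Col23a1 at 0.23 ± 0.49, none of them called. The sign of Col5a3 turned without OA-NO2 replicate 1 (-0.17).

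For OA over vehicle, 0 of 27 collagen genes were called by edgeR or DESeq2, and edgeR called 0% of all genes tested. At an unadjusted p under 0.05, 4 members were lower, Col4a4, Col6a2, Col16a1 and Col6a1, and 0 higher, where 1.53% of all genes were lower and 2.36% higher. The lowest adjusted p was 0.9746 and the median log2 fold change of the 27 members was -0.48. Col4a4 had 0.611, 0.102 and 0.301 CPM in OA livers, against 0.465, 1.38 and 2.24 CPM in vehicle livers (-1.99 ± 0.62, and -2.76 without OA replicate 1), with overlap between the groups. Col6a2 had 10.2, 8.60 and 3.55 CPM in OA livers, against 10.4, 11.1 and 23.3 CPM in vehicle livers (-0.996 ± 0.38). Col16a1 had 5.96, 4.71 and 2.95 CPM in OA livers, against 5.87, 7.03 and 8.06 CPM in vehicle livers (-0.62 ± 0.28). OA replicate 3 was the lowest of its group in Col6a2 and Col16a1.

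OA-NO2 and OA differ by the nitro group and were given at the same rate, so they were compared as 1 pair of compounds. For OA-NO2 over OA, 0 of 27 collagen genes were called by edgeR or DESeq2, where edgeR called 0.00691% and DESeq2 0.352% of all genes tested. At an unadjusted p under 0.05, 2 members (7.41% of the 27) were lower and 0 higher, where 6.76% of all genes were lower and 5.27% higher (12% in both directions together), so the count of members is no result of its own. The median log2 fold change of the 27 was -0.39. Col5a2 had 6.53, 2.28 and 3.80 CPM in OA-NO2 livers, against 13.3, 7.68 and 4.99 CPM in OA livers (-1.05 ± 0.44, interval -1.997 to -0.09, adjusted p = 0.385). Col3a1 had 79.7, 18.1 and 35.4 CPM in OA-NO2 livers, against 203, 108 and 35.1 CPM in OA livers (-1.38 ± 0.58, interval -2.64 to -0.12, adjusted p = 0.385). Col8a1, with the next lowest p, had 1.29, 0.776 and 1.03 CPM in OA-NO2 livers, against 3.87, 1.59 and 0.902 CPM in OA livers (-1.05 ± 0.49, interval -2.10 to 0.01). All 3 genes overlapped between the compounds, through OA replicate 3. Col3a1 was at -0.69 without OA replicate 1 and at -2.11 without OA-NO2 replicate 1, and Col8a1 was at -0.29 without OA replicate 1. For Col1a1 the interval ran from -2.42 to 0.39, which holds both no difference and a difference larger than the -1.38 of Col3a1. A p that misses the threshold does not show that the compounds act alike.

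**Figure D4:**
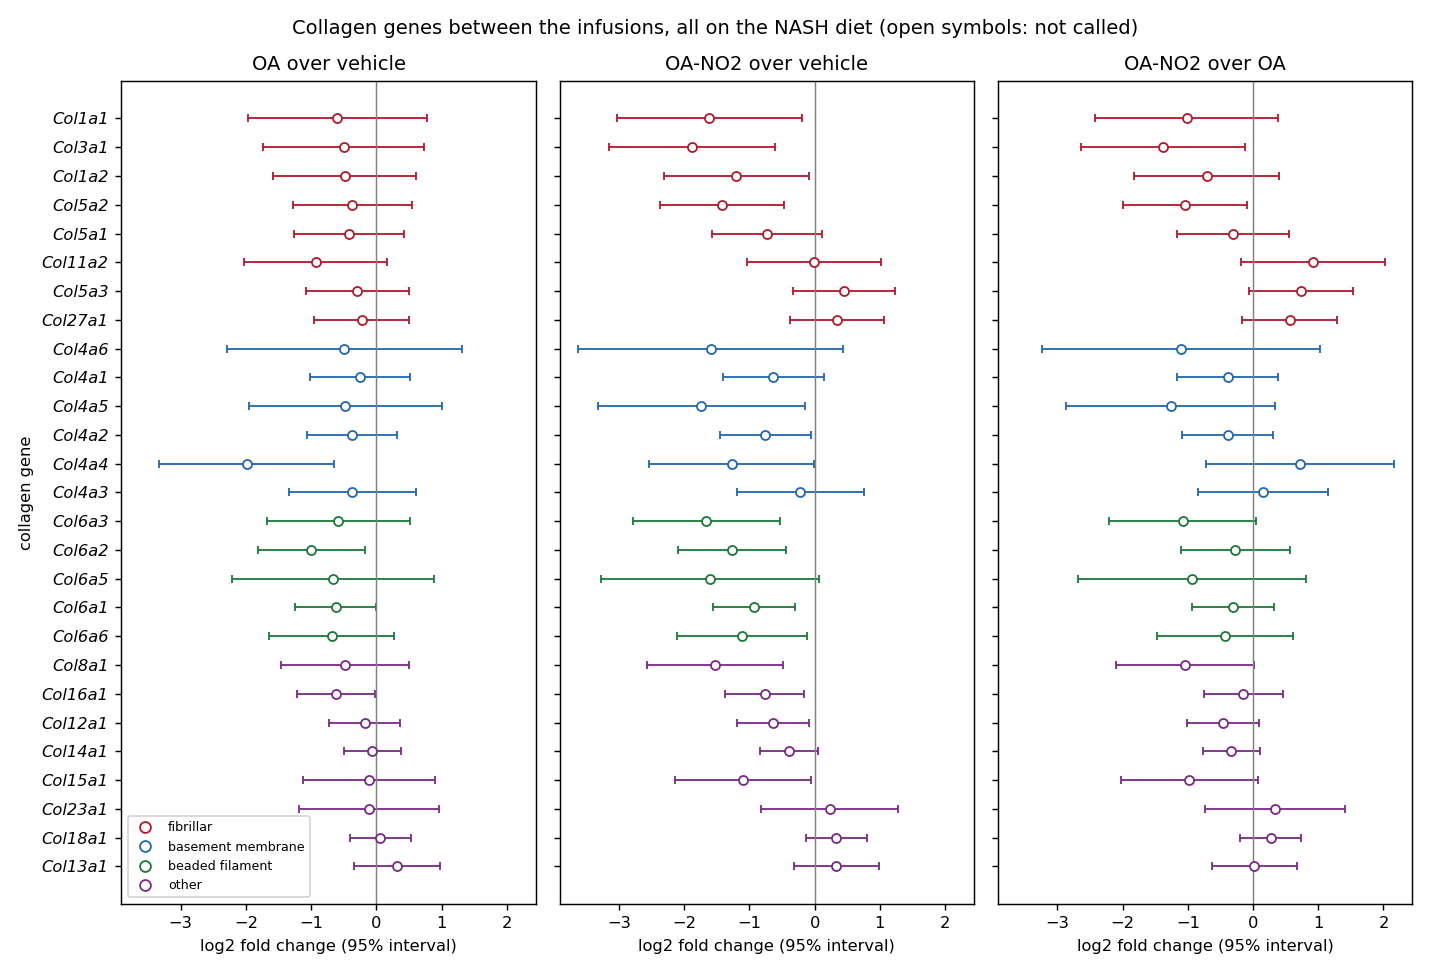
Log2 fold change with 95% interval (n = 3 mice a group) of the 27 tested collagen genes for OA over vehicle, OA-NO2 over vehicle and OA-NO2 over OA, all on the NASH diet, coloured by class; no gene was called. For OA-NO2 over vehicle most symbols lie left of 0, with a median of -0.93, and Col5a3, Col27a1, Col13a1, Col18a1 and Col23a1 lie right of it.

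Set side by side for the 14 members called in vehicle livers, OA-NO2, OA and vehicle livers had median log2 fold changes over chow of 1.29, 1.67 and 2.36, all 3 taken against the same chow libraries. These members were chosen by vehicle over chow, which favours a high vehicle value, so the order of the 3 medians is no test. Over vehicle, the medians were -1.06 in OA-NO2 and -0.48 in OA livers, both taken against the vehicle libraries that chose the members. For OA-NO2 over OA, which uses neither vehicle nor chow libraries, it was -0.42, with a range of -1.38 to -0.15. By library, the median log2 ratio of the 14 to their chow means was 1.96, 0.69 and 1.15 in OA-NO2 replicates 1 to 3, 2.16, 1.85 and 0.99 in OA replicates and 1.87, 2.16 and 2.91 in vehicle replicates. Thus OA-NO2 replicate 1 stood with the vehicle libraries and OA replicate 3 with the other OA-NO2 libraries. Of the 14 members, 6, 14 and 14 lay below the lowest vehicle library in OA-NO2 replicates 1 to 3, and 1, 5 and 13 in OA replicates 1 to 3. All 14 lay above the highest chow library in each OA library and in OA-NO2 replicates 1 and 3, and 11 did in OA-NO2 replicate 2. Both sets of counts use the vehicle or chow libraries that chose the members, and the same share over all genes was not counted.

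**Figure D5:**
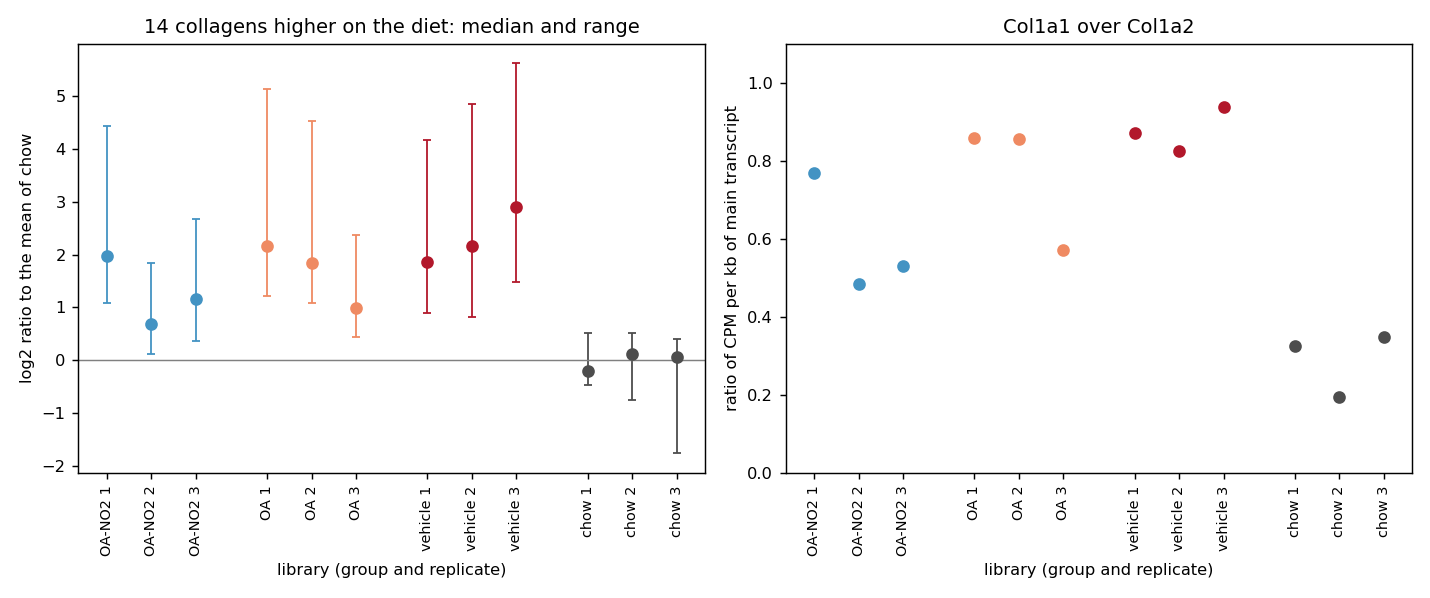
Left, log2 ratio to the chow mean for the 14 collagen genes higher in vehicle than in chow livers (median with lowest and highest member) in each library. Right, Col1a1 over Col1a2 per kilobase of main transcript; OA-NO2 replicate 1 (0.770) lies near the vehicle libraries and OA replicate 3 (0.571) near the other OA-NO2 libraries.

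Genes that make, cross-link and remove collagen were counted in the same test of vehicle over chow, each list beside the 11.1% of all genes called higher and 8.16% called lower. For folding and hydroxylation of procollagen, 6 of 16 tested genes were higher and 0 lower, led by Crtap (log2 fold change 1.25 ± 0.26), a partner of prolyl 3-hydroxylase, the collagen chaperone Serpinh1 (1.74 ± 0.38) and the helix-folding isomerase Fkbp10 (2.33 ± 0.58). For the proteinases that trim procollagen and their enhancers, 2 of 5 were higher, Pcolce (1.47 ± 0.27) and Adamts2 (2.22 ± 0.41), and 1 lower, Bmp1 (-0.70 ± 0.18). Cross-linking lysyl oxidases gave 3 of 5 higher and 0 lower, Loxl2 (2.34 ± 0.40), Loxl1 (2.74 ± 0.64) and Lox (4.38 ± 1.03).

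Of the collagen receptors, 4 of 8 tested genes were higher and 0 lower, among them the inhibitory receptor Lair1 (1.54 ± 0.30), the uptake receptor Mrc2 (2.53 ± 0.52) and the kinase receptor Ddr2 (0.88 ± 0.22). Matrix proteins that bind fibrils gave 6 of 8 higher and 0 lower, led by Sparc (1.85 ± 0.31), Tnxb (1.37 ± 0.26) and Bgn (1.24 ± 0.25). For collagen degradation and its inhibitors, 5 of 8 were higher and 0 lower, with the collagenase Mmp13 at 5.63 ± 0.995 and the protease Ctsk at 2.64 ± 0.53. Timp1, the proteinase inhibitor, averaged 6.04 ± 2.71 CPM in vehicle livers and 0.0520 ± 0.0900 CPM in chow livers (SD, n = 3 each), where it had 1 read in all. Adjusted p of the genes named with a value ran from 0.00342 (Timp1 and Sparc) to 0.0175 (Ddr2). For OA over chow, edgeR called 6.33% of all genes higher and 2.23% lower. There, 1 of 16 folding genes was higher, near that share. Higher too were 1 of 5 trimming genes, 2 of 5 cross-linking genes, 3 of 8 receptors, 2 of 8 fibril-binding genes and 4 of 8 degradation genes. Lower was 1 trimming gene. No gene of these lists was called by edgeR for OA-NO2 over chow (0.435% of all genes higher, 0.249% lower) or between the infusions (at most 0.0207% of all genes). At an unadjusted p under 0.05, a level that 7.25% of all genes reached upward and 8.51% downward for OA-NO2 over vehicle, folding genes were mixed, with 2 higher and 6 lower of 16 and a median of -0.07. Trimming genes had 1 higher and 2 lower of 5, and receptors 1 higher and 3 lower of 8. Cross-linking genes had 3 of 5 lower, fibril-binding genes 6 of 8 lower and degradation genes 5 of 8 lower, with 0 higher in each of these 3 lists. For OA over vehicle each list had 0 or 1 gene at an unadjusted p under 0.05, which 2.36% of all genes reached upward and 1.53% downward.

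Part of the markers of collagen-making cells were called, where 11.1% of all genes were called higher and 8.16% lower. For vehicle over chow, 3 of 8 stellate cell markers were higher (Cygb, Des and Pdgfrb), as were 3 of 3 tested myofibroblast markers (Acta2, Lum and Postn) and 2 of 4 of portal fibroblasts (Cd34 and Eln). Summed CPM of the 8 stellate cell markers was 133 to 195 in OA-NO2, 172 to 243 in OA, 174 to 251 in vehicle and 129 to 181 in chow livers, so the vehicle and chow ranges overlapped. For the 6 myofibroblast markers it was 20.9 to 47.1, 30.1 to 108, 51.4 to 118 and 19.8 to 35.0 CPM in the same order of groups, with Cthrc1 at 0 in chow. The 5 portal fibroblast markers summed to 3.57 to 8.53, 5.90 to 16.4, 10.99 to 23.5 and 2.03 to 5.36 CPM. Of the 3 smooth muscle markers 1 was tested, and it was not called (Myh11, log2 fold change 0.39 ± 0.43), with sums of 1.14 to 4.01, 1.99 to 3.07, 1.76 to 3.49 and 1.2797 to 2.27 CPM.

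Markers of other cell types were counted in the same test. Cholangiocyte markers were higher in 4 of 5, with summed CPM of 7.002 to 10.9 in OA-NO2, 4.21 to 18.8 in OA, 6.38 to 30.5 in vehicle and 3.64 to 7.48 in chow livers. Macrophage markers were higher in 3 of 5, with 199 to 222, 230 to 307, 205 to 241 and 97.4 to 211 CPM, and mesothelial markers in 2 of 4, with 1.55 to 5.07, 1.32 to 6.62, 6.47 to 28.3 and 2.49 to 4.93 CPM in the same order. Hepatocyte markers were lower in 4 of 6. Their summed CPM was 69026 to 103244 in OA-NO2, 53993 to 92000 in OA, 45753 to 59676 in vehicle and 122320 to 151074 in chow livers. Each vehicle sum lay below each OA-NO2 and chow sum, and OA replicate 3 had the highest OA sum. Of 6 endothelial markers 0 were called by edgeR. At an unadjusted p under 0.05, 1 endothelial marker was higher and 1 lower, a level that 33.7% of all genes reached in either direction. Markers of adipose tissue, pancreas, cartilage and skeletal muscle were not tested, and their summed CPM was at most 2.93, for adipose tissue in vehicle replicate 1. The part of cell composition in the collagen results was not tested.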

How the data were processed

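Bulk RNA sequencing of liver was analysed from 12 libraries, which the labels tie to separate mice by ear tag. The submitters' processing notes name Trimmomatic 0.35, HISAT2 2.1.0, SAMtools 1.2, HTSeq and the genome build GRCm38. The sources used here do not give the annotation release, the use of strand or the handling of multiply mapped reads. Raw whole-number counts per gene are what the authors deposited. Replicate numbers follow deposit order and pair no animals. Each pair of replicates differed by more than sampling noise (lowest chi-square per degree of freedom 24.3).

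Gene symbols, coordinates and lengths come from GENCODE M21 (GRCm38). A symbol was found for 24914 identifiers; the 69 without one held 0.0143% of counts. Collagen class was assigned from textbook knowledge. Genes were filtered with edgeR's default rule (minimum count 10, minimum total 15), leaving 14469, and scaled by TMM. A single quasi-likelihood fit with edgeR 4.0.16 (R 4.3.3) held the 12 libraries of the 4 groups. P-values were adjusted over the 14469 genes (Benjamini-Hochberg), genes under 0.05 were called, and the common biological coefficient of variation came to 0.226. SE is the log2 fold change over the square root of its F statistic, and 95% intervals use it. The fit was tested on simulated counts. For vehicle over chow it called 47.5% of genes changed by a log2 fold of 1, 95% at 2 and 100% at 3. It also called 12 unchanged genes. CPM and sums over members were computed from TMM-scaled totals. No fold change is given where a group held 3 or fewer reads.

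Values per library are given for the main chains of types I, III, IV, V and VI, for the 3 members with the lowest p in each comparison of infusions (none was called), and for tested members past a log2 fold of 1 that were not called. Other members are given by fold change, and values per library of Col14a1, Col18a1 and Col27a1 were added after they were seen. Main transcripts are those with the longest coding sequence. Each gene list names its 3 lowest p. The members, lists and markers were chosen with earlier results of these data known. Alternatives were the edgeR fit with relative log expression scaling (the size-factor method of DESeq2) and the Wald test of DESeq2 1.42.0. Others were totals alone, no filter, at least 1 CPM in 3 libraries, only the groups compared, each library left out, and, chosen after the data were seen, exon-union lengths.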

Additional observations from a re-analysis of the deposited data

How the results depend on the processing

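No paired analysis was possible because the labels give ear tags and no replicate numbers shared between groups. The count of collagen genes called for vehicle over chow was 12 to 17 over all alternatives (12 to 14 with 1 library left out). For OA over chow it was 12 in the main test, 5 to 15 with 1 library left out and 12 to 15 otherwise. For OA-NO2 over chow it was 0 in the main test and with any library left out, but 10 with totals alone, 2 with no filter on low counts and 8 with the DESeq2 Wald test; the cause was not tested. Between the infusions it was 0 under every alternative tried. No called change turned its sign. At least 1 called member lost its call in 3 of the alternatives for vehicle over chow (2 members) and in 6 for OA over chow (7 members). With totals alone the summed collagen CPM was 649 in chow and 1350 in vehicle livers. Exon-union lengths moved the mean Col1a1 over Col1a2 ratio by more than its SD in each group, in vehicle from 0.878 to 1.84. Col6a2 over Col6a1 moved likewise in each group, and Col3a1 over Col1a1 and Col5a2 over Col5a1 in the diet groups. Col4a1 over Col4a2 stayed within its SD. The share of Col1a1, Col1a2 and Col3a1 per kilobase in chow moved to 1.62%. With 3 mice a group and low counts of the minor type IV and VI chains, changes of those chains were poorly resolved.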
